A study of Homo sapiens with 8 samples.

Results

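RAB proteins are the largest family of small GTPases and give vesicles and organelles their identity. The RAB genes described here were chosen by name, as every gene whose only annotated symbol is RAB followed by a number and at most 1 letter. By this rule 57 of the 19775 genes measured were RAB genes, with 138 probe sets among them. Where a gene had several probe sets, the brightest on average across the 8 arrays stood for it. That average takes both groups together, and the difference between the groups played no part in the choice. For grouping by role, 7 were taken as secretory granule RABs, 21 as endosomal, 11 as ER-Golgi and Golgi, 5 as RABs of surface delivery and the cilium, 3 as RABs of lysosome-related organelles and 10 as other. Another 3 RAB symbols, RAB6C, RAB6D and RAB34, stood only on probe sets shared with another gene and were not analysed here.

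The cells were K562, an established human line from a chronic myeloid leukaemia with erythroid features, stably carrying p42-C/EBPα-ER. In this fusion the full-length form of C/EBPα, a transcription factor of granulocyte differentiation, is joined to the oestrogen receptor, and estradiol drives such a fusion into the nucleus. The first group of 4 arrays came from cells given 1 µM beta-estradiol for 6 h, and the second group of 4 arrays from cells given the ethanol vehicle for 6 h. Both groups carried the fusion and grew in RPMI without phenol red and with charcoal-stripped serum. No group without the fusion is named, so estradiol acting without it cannot be told apart from estradiol acting through it. The sources used here do not give whether the line is 1 clone, which promoter drives the fusion or how the biological replicates were separated. The p-values therefore rest on the spread among these 8 samples, which may be technical. Where the fusion lay in the cells was not measured.

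Each array gave RMA log2 values, between 1.92 and 14.39, with array medians of 4.97 to 5.08. Arrays of a group correlated at 0.995 or more, and the highest correlation between arrays of different groups was 0.994. The 8 measured erythroid markers all lay above the array medians, with a mean log2 level of 10.69 to 10.72 with estradiol and 10.89 to 10.95 with vehicle. GATA1, KLF1 and HBE1 among them were called lower, at log2 differences of -0.89, -0.71 and -0.17, and the other 5 were not called. TAL1 and TFRC were both at 0.08, with every estradiol array above every vehicle array. HBZ was at -0.04 and ALAS2 at -0.02. Of HBE1 1 of 2 probe sets was called lower, and of EPOR, not called by the probe set that stands for it, 3 of 5 were, at -0.46 to -0.11 over the 5. The 6 monocyte and neutrophil markers averaged 4.33 to 4.38 with estradiol and 4.31 to 4.47 with vehicle, with 4 of the 6 below the array medians. None of the 6 was called by the probe set that stands for it, but another probe set of ITGAM was called higher, at a log2 difference of 0.73, while the one standing for it was at -0.17. The lymphocyte, epithelial, fibroblast and endothelial lists held no called gene, and the epithelial list averaged 5.76 to 5.79 with estradiol and 5.87 to 6.12 with vehicle. The part of the erythroid, myeloid or epithelial markers in the RAB differences was not tested. In bulk RNA a smaller share of cells with a transcript and less of it per cell cannot be told apart.

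A RAB protein cycles between a GDP-bound form in the cytosol and a GTP-bound form on a membrane. Exchange factors load GTP, GTPase-activating proteins (GAPs) speed its hydrolysis, and the GTP-bound form recruits effectors such as tethers and motors. Prenyl groups anchor the protein, and GDI extracts it for reuse. In blood cells RAB27A is best known for docking secretory granules at the plasma membrane, and its loss causes Griscelli syndrome, in which lytic granules of T cells are not released.

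Estradiol raised 19 of the 57 RAB genes and lowered 4, and 34 were not called. The largest rise was that of RAB8B, 1.92-fold, followed by RAB27B (1.83-fold), RAB27A (1.67-fold), RAB31 (1.57-fold) and RAB20 (1.56-fold). The largest fall was that of RAB6B, 1.67-fold lower. A call is an adjusted p below 0.05 in limma, with Benjamini-Hochberg adjustment over all 19775 genes. Over all genes 17.9% were called, 8.29% higher and 9.6% lower, while 40.4% of RAB genes were called, 33.3% higher and 7.02% lower. The median log2 difference, estradiol minus vehicle, was 0.04 over the RAB genes and -0.03 over all genes. The share of calls differed with signal. Among genes above the array medians in both groups 26% were called, against 46.8% of the 47 RAB genes there. This cut does not match levels. The median RAB gene lay at 7.19 to 7.37 on the arrays, whose upper quartiles over all probe sets were 6.90 to 7.03. None of the 9 RAB genes below the array medians in both groups was called, where 1.99% of all such genes were. No filter on low values was applied.

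The 4 estradiol arrays all lay above the 4 vehicle arrays for 21 RAB genes and all below them for 4. Over all genes this was so for 11.1% and 12.9%. The 21 were the 19 called genes together with RAB14 and RAB18. The 34 genes not called had log2 differences of -0.13 to 0.19. The vehicle arrays were not alike: replicate 2 was the lowest vehicle array for 13 of the 19 called rises. It also had the lowest upper quartile of all arrays, 6.90 against 6.95 to 7.03 on the others. How often it was the lowest vehicle array over all genes was not counted. Without vehicle replicate 2, 18 RAB genes were called higher and 4 lower.

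**Figure D1:**
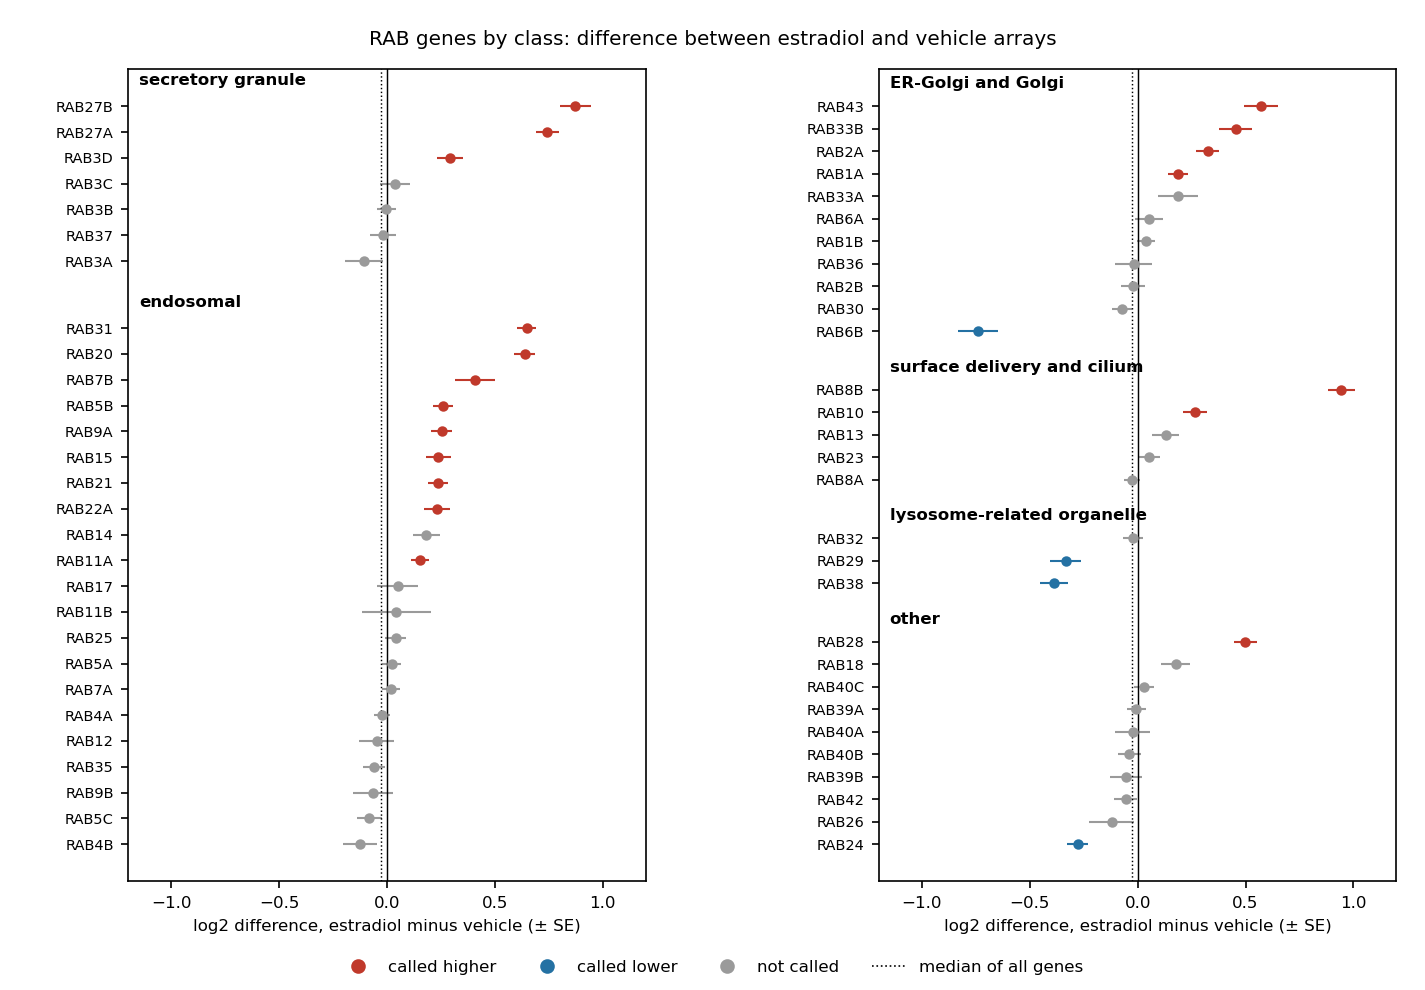
Log2 difference (estradiol minus vehicle, horizontal axis) of each of the 57 RAB genes, grouped by role, with bars of 1 SE from limma either side, the colour giving the call and a dotted line at the median of all genes. RAB8B, RAB27B and RAB27A lie farthest to the right at 0.94, 0.87 and 0.74, RAB6B farthest to the left at -0.74, and most genes not called lie close to 0.

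Secretory granule RABs dock and tether granules for regulated release. Of 7, estradiol raised RAB27A, RAB27B and RAB3D, and RAB3A, RAB3B, RAB3C and RAB37 were not called. RAB27A, the granule-docking RAB of lymphocytes and melanocytes, had log2 levels of 12.14, 12.18, 12.18 and 12.17 with estradiol, against 11.50, 11.32, 11.50 and 11.37 with vehicle. The groups lay well apart, and the estradiol arrays were nearly identical. The log2 difference was 0.74 ± 0.05 (SE, n = 4 arrays a group, limma adjusted p = 1.53e-05), a 1.67-fold rise. RAB27B, its close relative in platelet and mast cell granules, had 7.33, 7.27, 7.35 and 7.20 with estradiol, against 6.56, 6.24, 6.49 and 6.38 with vehicle. Again no array of one group reached the other, and the difference was 0.87 ± 0.07 (limma adjusted p = 4.3e-05). RAB3D, found on granules of exocrine and mast cells, had 6.35, 6.28, 6.44 and 6.28 with estradiol, against 6.17, 6.04, 6.00 and 5.97 with vehicle. Its groups came within about the spread of either group, and the difference was 0.29 ± 0.06 (limma adjusted p = 0.00905).

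The neuronal RAB3A, a regulator of synaptic vesicle release, had 5.27, 5.18, 5.39 and 5.14 with estradiol, against 5.13, 5.39, 5.52 and 5.37 with vehicle. The groups overlapped, and the 95% interval of the difference ran from -0.31 to 0.09 (limma adjusted p = 0.502). RAB3B, a neuroendocrine member, averaged 4.98 ± 0.05 with estradiol and 4.98 ± 0.04 with vehicle (SD, n = 4), at the level of the array medians, with an interval of -0.10 to 0.09. RAB3C, also a vesicle RAB of neurons, averaged 4.28 ± 0.14 with estradiol and 4.24 ± 0.05 with vehicle. RAB37, a granule RAB of mast cells, averaged 3.33 ± 0.11 with estradiol and 3.35 ± 0.05 with vehicle. RAB3C and RAB37 lay below the array medians, and RAB37 below the lower quartiles of 3.67 to 3.74, so a change of either transcript may not have been detectable.

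**Figure D2:**
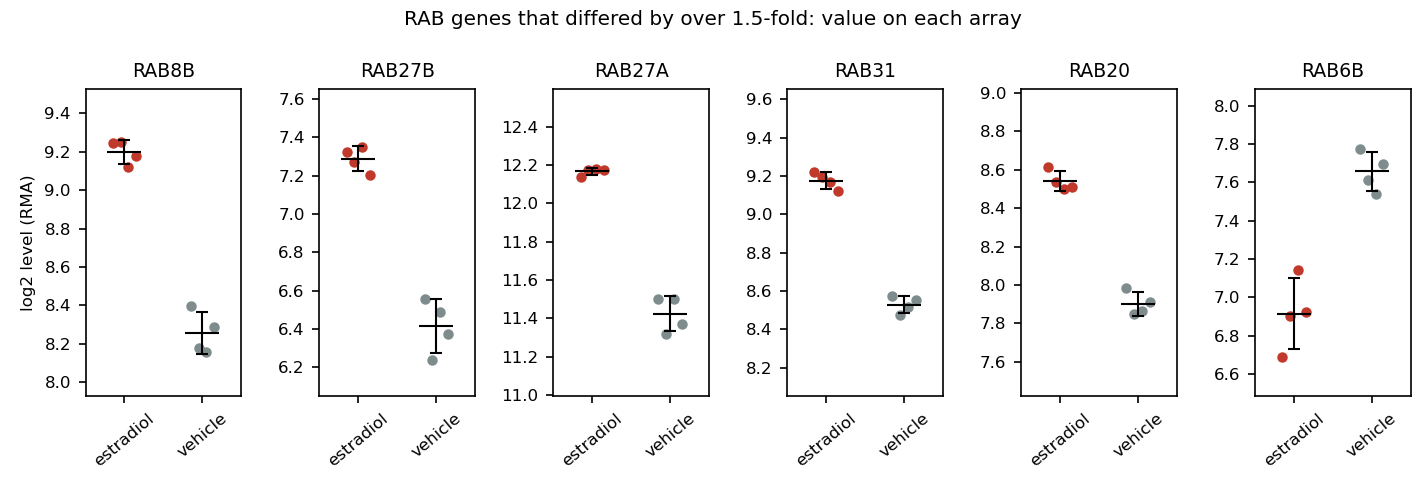
RMA log2 level (vertical axis) on each array for the 6 RAB genes that differed by over 1.5-fold, estradiol arrays left and vehicle arrays right in each panel, with each group's mean and SD (n = 4). The panels start at different levels but all span 1.6 log2 units, and in each of them no estradiol point reaches a vehicle point.

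The starts of the RAB genes that rose by more than 1.5-fold are shown because the treatment acts on a DNA-binding protein and these windows are where the letters of its motif were looked for. RefSeq windows on GRCh38.p14, running from 250 bases before to 50 bases after an annotated start, existed for 45 of the 57 RAB genes, with 64 windows in all. RAB8B, RAB27B, RAB27A and RAB31 had windows and RAB20 did not. Both strands were searched for TTNNGNAA (the outline of a C/EBP site), for its special case TTGCGCAA, for AGATAA (the core of a GATA site) and for CACGTG (the E-box of MYC-type factors). Matches are in capitals, and a match on the opposite strand appears as its reverse complement. The 5 windows printed were picked because they hold a match, so they are no sample of the genes' starts. They are chr15:63189356-63189655 on the plus strand for RAB8B, chr18:54717607-54717906 on the plus strand for RAB27B, chr15:55319074-55319373 and chr15:55248999-55249298 on the minus strand for RAB27A, and chr18:9708051-9708350 on the plus strand for RAB31.
RAB8B: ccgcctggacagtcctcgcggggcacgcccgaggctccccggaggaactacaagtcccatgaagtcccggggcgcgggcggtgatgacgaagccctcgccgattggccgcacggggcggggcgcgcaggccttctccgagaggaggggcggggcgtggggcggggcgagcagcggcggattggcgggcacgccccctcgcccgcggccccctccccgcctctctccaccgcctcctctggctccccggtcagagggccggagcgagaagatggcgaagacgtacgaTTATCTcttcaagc
RAB27B: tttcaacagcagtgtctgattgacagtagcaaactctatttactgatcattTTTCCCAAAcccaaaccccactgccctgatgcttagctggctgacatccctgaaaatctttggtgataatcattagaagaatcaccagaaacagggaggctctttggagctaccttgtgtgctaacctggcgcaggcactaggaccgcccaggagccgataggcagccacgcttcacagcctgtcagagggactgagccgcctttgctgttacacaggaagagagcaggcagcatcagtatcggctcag
RAB27A window 1: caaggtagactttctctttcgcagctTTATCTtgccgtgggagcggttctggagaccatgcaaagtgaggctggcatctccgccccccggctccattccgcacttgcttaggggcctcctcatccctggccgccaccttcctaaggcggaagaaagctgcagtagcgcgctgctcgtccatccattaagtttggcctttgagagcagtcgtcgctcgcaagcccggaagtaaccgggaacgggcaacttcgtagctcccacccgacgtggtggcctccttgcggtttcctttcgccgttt
RAB27A window 4: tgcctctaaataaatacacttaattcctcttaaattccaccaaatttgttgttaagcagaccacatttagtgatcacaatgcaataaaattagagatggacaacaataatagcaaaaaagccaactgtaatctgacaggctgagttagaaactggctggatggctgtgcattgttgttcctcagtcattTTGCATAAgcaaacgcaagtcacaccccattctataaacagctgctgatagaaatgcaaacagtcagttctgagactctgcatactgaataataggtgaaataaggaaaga
RAB31: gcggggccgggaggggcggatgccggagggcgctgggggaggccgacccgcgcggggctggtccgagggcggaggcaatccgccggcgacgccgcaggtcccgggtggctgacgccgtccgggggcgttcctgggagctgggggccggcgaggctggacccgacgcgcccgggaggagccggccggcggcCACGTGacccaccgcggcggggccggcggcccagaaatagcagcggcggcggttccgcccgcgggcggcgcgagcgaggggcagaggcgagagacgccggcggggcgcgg

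The RAB8B window holds a GATA match inside the transcribed part and no C/EBP-type match. In the RAB27B window shown the capitals cover overlapping C/EBP-type matches, the first beginning 199 bases before the start, and the gene's other window, chr18:54828227-54828526, held none of these letters. RAB27A has 5 windows, numbered from upstream to downstream. Window 1 holds a GATA match 224 bases before the start and window 4 a C/EBP-type match 61 bases before it. Of those not shown, window 2 holds 2 C/EBP-type matches, window 3 holds 3, and window 5 none of these letters. RAB31 holds an E-box 60 bases before its start. Neither window of RAB6B, the largest fall, held any of these letters. Of all 35116 windows 36.8% held TTNNGNAA, against 31.2% of RAB windows. It was in 7 of the 24 windows of RAB genes called higher (29.2%) and in 12 of the 36 windows of RAB genes not called (33.3%). TTGCGCAA was in 0 of the 64 RAB windows and in 0.151% of all windows. AGATAA was in 7.81% of RAB windows and 10.3% of all windows, and CACGTG in 9.38% of RAB windows and 7.26% of all windows. These are matches of letters within 300 bases and no measure of binding, and which start the cells used was not measured.

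RABs of surface delivery carry cargo from the trans-Golgi network and recycling endosomes to the plasma membrane and the cilium. Of 5 such genes RAB8B and RAB10 rose, and RAB8A, RAB13 and RAB23 were not called, with log2 differences of -0.03 to 0.13. RAB8B had log2 levels of 9.25, 9.25, 9.12 and 9.18 with estradiol, against 8.40, 8.18, 8.16 and 8.29 with vehicle. It was the RAB gene with the widest separation of groups, and the difference was 0.94 ± 0.06 (limma adjusted p = 1.11e-05). Its paralogue RAB8A, named after its values were seen, had 10.15 ± 0.01 with estradiol and 10.17 ± 0.03 with vehicle (SD, n = 4). The 95% interval of the difference was -0.11 to 0.06 for RAB8A and 0.80 to 1.09 for RAB8B, and the difference between the paralogues was not tested. RAB10, which brings GLUT4 vesicles to the surface of fat cells, had 11.33, 11.32, 11.30 and 11.34 with estradiol, against 11.07, 10.91, 11.16 and 11.09 with vehicle. The rise was small beside that of RAB8B, 0.26 ± 0.06 (limma adjusted p = 0.00945), but every estradiol array was above every vehicle array.

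Endosomal RABs sort cargo among early, recycling and late endosomes. Estradiol raised 9 of 21 and lowered none by the call, and the 9 had log2 differences of 0.15 to 0.65. RAB31, which works between the trans-Golgi network and endosomes, had 9.22, 9.19, 9.17 and 9.12 with estradiol, against 8.57, 8.47, 8.52 and 8.55 with vehicle. Both groups were tight, and the difference was 0.65 ± 0.04 (limma adjusted p = 1.14e-05). RAB20, a RAB of phagosome maturation in macrophages, had 8.62, 8.53, 8.50 and 8.51 with estradiol, against 7.99, 7.85, 7.86 and 7.91 with vehicle, a difference of 0.64 ± 0.05 (limma adjusted p = 2.49e-05). RAB7B, which returns cargo from late endosomes to the Golgi, had 5.84, 5.72, 5.86 and 5.73 with estradiol, against 5.09, 5.48, 5.46 and 5.49 with vehicle. Vehicle replicate 1 lay well below the other vehicle arrays there, and the difference was 0.41 ± 0.09 (limma adjusted p = 0.0135).

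Other called endosomal RABs differed by less. RAB5B, one of the RAB5 isoforms that drive early endosome fusion, averaged 7.41 ± 0.06 with estradiol and 7.15 ± 0.04 with vehicle (SD, n = 4), a difference of 0.26 ± 0.04. Its isoforms RAB5A and RAB5C were not called. RAB21, a RAB of integrin uptake, averaged 8.94 ± 0.03 with estradiol and 8.70 ± 0.06 with vehicle, and RAB9A, which carries mannose 6-phosphate receptors back to the Golgi, 9.17 ± 0.02 with estradiol and 8.91 ± 0.08 with vehicle. Their limma adjusted p-values were 0.00331 for RAB5B, 0.00649 for RAB21 and 0.00586 for RAB9A. RAB15, a RAB of early and recycling endosomes, differed by 0.24 ± 0.06, and RAB22A, which feeds recycling tubules, by 0.23 ± 0.06. For both the groups came close together, and the calls were lost without single arrays. RAB15 had a limma adjusted p of 0.0172, and 0.0533, 0.0549 and 0.0545 without estradiol replicate 3, estradiol replicate 4 and vehicle replicate 3. RAB22A had 0.0271, and without any 1 array other than vehicle replicate 1 it had 0.0542 to 0.0835.

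RAB11A, the main RAB of recycling endosomes, stood just inside the threshold. Its levels were 11.72, 11.71, 11.68 and 11.71 with estradiol, against 11.62, 11.48, 11.54 and 11.58 with vehicle, a difference of 0.15 ± 0.04 (limma adjusted p = 0.0363). The call was lost without any 1 array other than vehicle replicate 1, at 0.0547 to 0.098, and over the mean of its probe sets, at 0.129. RAB14, which moves cargo between the Golgi and early endosomes, stood just outside, with 9.73, 9.74, 9.72 and 9.67 with estradiol, against 9.61, 9.37, 9.63 and 9.52 with vehicle. Its groups did not overlap either, and the difference was 0.18 ± 0.06 (limma adjusted p = 0.0766). RAB7A, the late endosome RAB, differed by 0.02 and the recycling RAB4A by -0.02, neither called.

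ER-Golgi and Golgi RABs act in the early secretory pathway. Of 11, estradiol raised RAB43, RAB33B, RAB2A and RAB1A and lowered RAB6B. RAB6B, a form of the retrograde Golgi RAB that is enriched in neurons, had log2 levels of 6.69, 6.91, 7.14 and 6.92 with estradiol, against 7.77, 7.61, 7.54 and 7.70 with vehicle. The estradiol arrays were more spread than the vehicle arrays but stayed below all of them, and the difference was -0.74 ± 0.09 (limma adjusted p = 0.000566). RAB43, a RAB of Golgi structure, had 5.95, 5.85, 6.04 and 5.95 with estradiol, against 5.30, 5.33, 5.61 and 5.28 with vehicle. Vehicle replicate 3 was the high one of its group, and the difference was 0.57 ± 0.08 (limma adjusted p = 0.000964). RAB33B, which binds the autophagy protein ATG16L1, averaged 5.35 ± 0.06 with estradiol and 4.90 ± 0.16 with vehicle (SD, n = 4). By its group means it was the RAB gene above the array medians in the estradiol group alone, with a difference of 0.45 ± 0.08 (limma adjusted p = 0.00333).

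RAB2A, which acts in traffic between ER and Golgi, averaged 9.92 ± 0.03 with estradiol and 9.60 ± 0.10 with vehicle (SD, n = 4), a difference of 0.32 ± 0.05 (limma adjusted p = 0.00291). RAB1A, which tethers ER-derived vesicles at the Golgi, had 12.02, 12.06, 12.12 and 12.09 with estradiol, against 11.94, 11.81, 11.89 and 11.92 with vehicle. The groups were close but did not overlap, and the difference was 0.19 ± 0.05 (limma adjusted p = 0.0205). RAB1A's call ended when estradiol replicate 2, 3 or 4 was left out, at adjusted p-values of 0.0513, 0.0631 and 0.0651, and when vehicle replicate 3 was, at 0.0546. The 6 Golgi RABs not called differed by -0.07 to 0.19. RAB6A was among them, but its 1 unshared probe set lay below the array medians, and its other probe sets are annotated to further RAB6 genes as well.

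RABs of lysosome-related organelles make melanosomes and related compartments. RAB38, which delivers melanin enzymes together with RAB32, had 6.93, 6.79, 6.85 and 6.77 with estradiol, against 7.26, 7.34, 7.20 and 7.09 with vehicle. All estradiol arrays were lower, with a difference of -0.39 ± 0.06 (limma adjusted p = 0.00263). RAB29, a partner of the kinase LRRK2, averaged 7.95 ± 0.10 with estradiol and 8.28 ± 0.11 with vehicle (SD, n = 4), a difference of -0.33 ± 0.07 (limma adjusted p = 0.0103). RAB32 was not called, at -0.02. With 3 genes, this group is too small for its share of calls to be read against the background.

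Among the other 10 RAB genes, RAB28 rose, RAB24 fell and 8 were not called, with log2 differences of -0.12 to 0.18. RAB28, whose loss causes a cone-rod dystrophy in the human retina, had 9.25, 9.29, 9.24 and 9.23 with estradiol, against 8.90, 8.73, 8.67 and 8.70 with vehicle, a difference of 0.50 ± 0.06 (limma adjusted p = 0.000248). RAB24, a RAB of autophagy, had 8.05, 8.18, 8.07 and 8.12 with estradiol, against 8.44, 8.31, 8.35 and 8.42 with vehicle, a difference of -0.28 ± 0.05 (limma adjusted p = 0.0039). In both the groups were fully separate. RAB18, a RAB of ER and lipid droplets, differed by 0.18 ± 0.07 without overlap of its groups and was not called (limma adjusted p = 0.112).

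Secretory granule RABs and the endosomal and Golgi RABs showed like shares of calls. Of the 7 secretory granule RABs 42.9% were called, all of them higher, and of the 32 endosomal and Golgi RABs 43.8% were called, 13 higher and 1 lower. The median log2 difference was 0.04 for the secretory granule RABs and 0.05 for the endosomal and Golgi RABs. RAB27A and RAB27B differed by 0.74 and 0.87, while the 13 endosomal and Golgi rises reached at most 0.65. Over the mean of all probe sets RAB27A differed by 0.86 but RAB27B by 0.46, below RAB31 at 0.66, RAB43 at 0.57 and RAB7B at 0.51. The mean of RAB27B takes in probe sets below the array medians. The comparison is a description of few genes and was not tested.

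Other probe sets of the same gene gave a check on the chosen one. Of the 23 called RAB genes 6 had 1 probe set and 17 had several. In a fit over all 54675 probe sets, the 17 comprised 7 with every probe set called the same way, 4 with more than 1 but not all called, 5 with 1 called, and RAB22A with 0 called. None of the called genes had a probe set with a call in the other direction, and 34 of the 38 other probe sets had the same sign. All 5 probe sets of RAB27A were called, with log2 differences of 0.72 to 1.04. The same held for the 3 of RAB8B at 0.85 to 0.94, the 3 of RAB31 at 0.64 to 0.68 and the 3 of RAB6B at -0.74 to -0.38. These 4 genes kept their call and sign with any of their probe sets.

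For other genes the probe set mattered more. RAB27B had 2 of 3 probe sets called, at 0.17 to 0.87 over the 3, and the mean of its probe sets differed by 0.46. Its other probe sets lay below the array medians in both groups, averaging 4.22 and 3.84 with estradiol and 4.05 and 3.49 with vehicle. RAB20 had 1 of 2 called, and the mean differed by 0.37. The other probe set of RAB20 was also dim, averaging 3.99 with estradiol and 3.88 with vehicle. RAB3D also had 1 of 2 called, and its mean differed by 0.27. The other probe set of RAB3D differed by 0.24 with overlapping groups (limma adjusted p = 0.135 over all probe sets). RAB29 had 1 of 3 called, at -0.33 to -0.16 over the 3. RAB28 had 3 of 5 called, with a mean that differed by 0.28, and RAB2A 3 of 6, with a mean that differed by 0.16 (limma adjusted p = 0.0803). RAB22A's mean differed by 0.06 (limma adjusted p = 0.471). RAB1A had 1 of 4 probe sets called, at 0.04 to 0.41 over the 4, and RAB11A 1 of 3, and in both the called one was not the one that stands for the gene. Among the 34 genes not called, RAB40B alone had a called probe set, at -0.32, and is named after its values were seen.

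**Figure D3:**
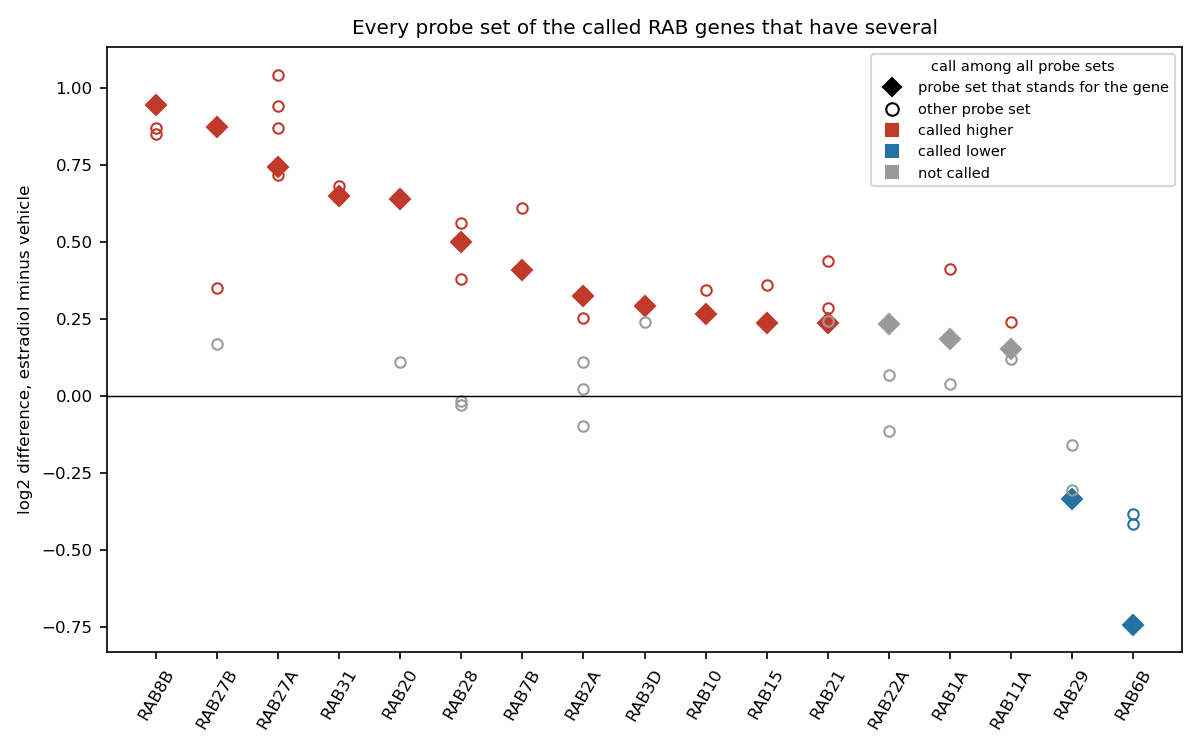
Log2 difference (estradiol minus vehicle, vertical axis) of every probe set of the 17 called RAB genes with several probe sets, with a filled diamond for the probe set that stands for the gene, open circles for the others, and the colour giving the call in a fit over all probe sets. The 5 probe sets of RAB27A lie together at 0.72 to 1.04, while those of RAB27B spread over 0.17 to 0.87.

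The proteins that switch RABs on and off were taken from lists of 127 genes, of which 121 were measured and 6 were not analysed here. Estradiol raised 18 and lowered 13 of them, 25.6% in all, against 17.9% of all genes. Among all genes above the array medians in both groups the share was 26%, close to that of the lists. Exchange factors had 8 rises and 3 falls among 33 genes, 33.3% called, 24.2% higher and 9.09% lower. Among all genes above the array medians in both groups 12.1% were called higher and 13.9% lower. RAB3IP (Rabin8), the exchange factor of RAB8 at the base of the cilium, had log2 levels of 8.51, 8.39, 8.30 and 8.28 with estradiol, against 7.04, 6.85, 6.95 and 6.90 with vehicle. The groups were more than 1 log2 unit apart, the difference was 1.43 ± 0.06 (limma adjusted p = 1.08e-06), and at 2.70-fold the rise exceeded that of every RAB gene. It rested on part of the gene's probe sets: 4 of 7 were called, with differences of -0.05 to 1.43, and their mean differed by 0.48. Its paralogue RAB3IL1 fell by 0.40 ± 0.10 on the log2 scale (limma adjusted p = 0.0264), a call lost without estradiol replicate 2, estradiol replicate 3 or vehicle replicate 3, at 0.0724, 0.0737 and 0.0547.

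DENND5A, which binds RAB6 and activates RAB39, averaged 8.99 ± 0.04 with estradiol and 8.34 ± 0.04 with vehicle (SD, n = 4), a difference of 0.65 ± 0.04 (limma adjusted p = 9.07e-06). DENND4A and DENND4C, both exchange factors of RAB10, differed by 0.49 ± 0.05 and 0.45 ± 0.07. All of these separated the groups fully. ANKRD27 (VARP), which activates RAB21 and binds RAB32 and RAB38, averaged 9.12 ± 0.06 with estradiol and 9.63 ± 0.05 with vehicle (SD, n = 4), a difference of -0.51 ± 0.05 (limma adjusted p = 1e-04). RIC1, part of the RAB6 exchange factor, differed by 0.44 ± 0.09, with 2 of 4 probe sets called and a mean over them that differed by 0.25. GAPVD1, an exchange factor of RAB5, differed by 0.26 ± 0.05. For GAPVD1 3 of 4 probe sets were called, at -0.12 to 0.35 over the 4, and their mean differed by 0.19. DENND5B and SBF1 were not called, at -0.03 and 0.04. In the fit over all probe sets each had 1 of 5 called, higher for DENND5B and lower for SBF1. Their probe sets differed by -0.20 to 0.27 for DENND5B and by -0.24 to 0.11 for SBF1. RAB3IL1, DENND4C, RIC1, GAPVD1, DENND5B and SBF1 are named after their values were seen.

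GAPs had 4 rises and 4 falls among 34 genes, 23.5% called. USP6NL (RN-tre), a GAP of RAB5, had 8.18, 8.20, 8.19 and 8.29 with estradiol, against 7.70, 7.39, 7.54 and 7.56 with vehicle, a difference of 0.67 ± 0.07 (limma adjusted p = 0.000138). The groups were far apart, though the mean of its probe sets differed by 0.43. TBC1D4 (AS160), a GAP of RAB10 and RAB8 that insulin signalling inactivates, averaged 8.58 ± 0.03 with estradiol and 9.04 ± 0.03 with vehicle (SD, n = 4), a difference of -0.46 ± 0.04 (limma adjusted p = 4.72e-05). TBC1D2 (Armus), a GAP of RAB7, differed by 0.58 ± 0.13, with vehicle replicate 2 high in its group at 6.07 beside 5.43 to 5.61. TBC1D20, the GAP of RAB1, differed by 0.32 ± 0.06. Their limma adjusted p-values were 0.0121 for TBC1D2 and 0.0065 for TBC1D20. RABGAP1L, named after its values were seen, was not called by the probe set that stands for it, at -0.03. In the fit over all probe sets 1 of its 5 was called higher, with differences of -0.06 to 0.73 over the 5.

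Effectors of RAB3 and RAB27 had 1 rise and 2 falls among 15 genes, 20% called. SYTL4 (granuphilin), which links RAB27A to syntaxin on granules, had 7.39, 7.46, 7.42 and 7.39 with estradiol, against 6.97, 6.57, 6.82 and 6.62 with vehicle. The groups were separate, with a difference of 0.67 ± 0.08 (limma adjusted p = 0.000565), but 1 of its 3 probe sets was called and their mean differed by 0.31. EXPH5 (Slac2-b), a RAB27 effector of exosome release and of the skin, averaged 7.63 ± 0.08 with estradiol and 8.15 ± 0.07 with vehicle (SD, n = 4), a difference of -0.52 ± 0.06 (limma adjusted p = 0.000229). For EXPH5 2 of 3 probe sets were called, at -0.52 to -0.15 over the 3, and their mean differed by -0.36. SYTL2 (Slp2-a), a tether of RAB27A granules, had 4.60, 4.89, 4.41 and 4.48 with estradiol, against 5.40, 4.77, 5.43 and 5.31 with vehicle. Its groups overlapped through estradiol replicate 2 and vehicle replicate 2, and the estradiol arrays lay below the array medians. The difference was -0.64 ± 0.16 (limma adjusted p = 0.0215), and -0.34 over the mean of its probe sets. Leaving out any 1 array other than estradiol replicate 1 or 2 or vehicle replicate 2 ended the call, at 0.058 to 0.0639.

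Endosomal effectors had 1 rise and 4 falls among 21 genes, 23.8% called, beside the 9 rises and no called fall of the endosomal RABs. Of the effectors 4.76% were called higher and 19% lower. Among all genes above the array medians in both groups 26% were called, 12.1% higher and 13.9% lower. The effectors were not tested against the RABs. RABEP1 (rabaptin-5), an effector of RAB5, averaged 8.31 ± 0.02 with estradiol and 8.60 ± 0.14 with vehicle (SD, n = 4), a difference of -0.29 ± 0.07 (limma adjusted p = 0.0163). Of its probe sets 2 of 5 were called, at -0.30 to -0.13 over the 5, and their mean differed by -0.23. RAB11FIP4 and WDR44, which bind RAB11, differed by -0.35 ± 0.07 and -0.29 ± 0.06. Over the mean of their probe sets neither was called, at -0.14 for RAB11FIP4 and -0.20 for WDR44 (limma adjusted p-values 0.109 and 0.189). APPL2, a RAB5 effector of signalling endosomes, differed by 0.33 ± 0.09 (limma adjusted p = 0.0275). The call ended when estradiol replicate 1, 2 or 4 was left out, at 0.0543, 0.0758 and 0.0813. EEA1, named after its values were seen, was not called by the probe set that stands for it, at -0.14. In the fit over all probe sets 1 of its 3 was called higher, with differences of -0.14 to 0.38 over the 3.

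Golgi effectors had 4 rises and 0 falls among 11 genes, 36.4% called, with a median log2 difference of 0.15. Over all genes 17.9% were called, and 26% of those above the array medians in both groups. GORAB, a Golgi protein that binds RAB6, had 7.31, 7.46, 7.29 and 7.37 with estradiol, against 7.09, 6.88, 7.06 and 6.96 with vehicle, a difference of 0.36 ± 0.06 (limma adjusted p = 0.0031). INPP5B, a RAB-binding phosphatase, differed by 0.29 ± 0.05, and by 0.17 over the mean of its probe sets. KIF20A, a RAB6-binding kinesin of late mitosis, differed by 0.27 ± 0.04. GOLGA2 (GM130), a tether that binds RAB1, differed by 0.23 ± 0.06 (limma adjusted p = 0.0334), a call lost without any 1 of the arrays other than estradiol replicate 3 and vehicle replicate 1, at 0.0569 to 0.0995. In the fit over all probe sets 0 of its 4 were called, and their mean differed by 0.15 (limma adjusted p = 0.0805).

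The list for the machinery that prenylates RABs and extracts them from membranes held no called gene, with 2 of its 9 genes not analysed. All 7 of its measured members had log2 differences between -0.11 and 0.12. The smallest p belonged to ICMT, which methylates prenylated proteins, with 10.16 ± 0.02 with estradiol and 10.27 ± 0.05 with vehicle (SD, n = 4, limma adjusted p = 0.114).

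**Figure D4:**
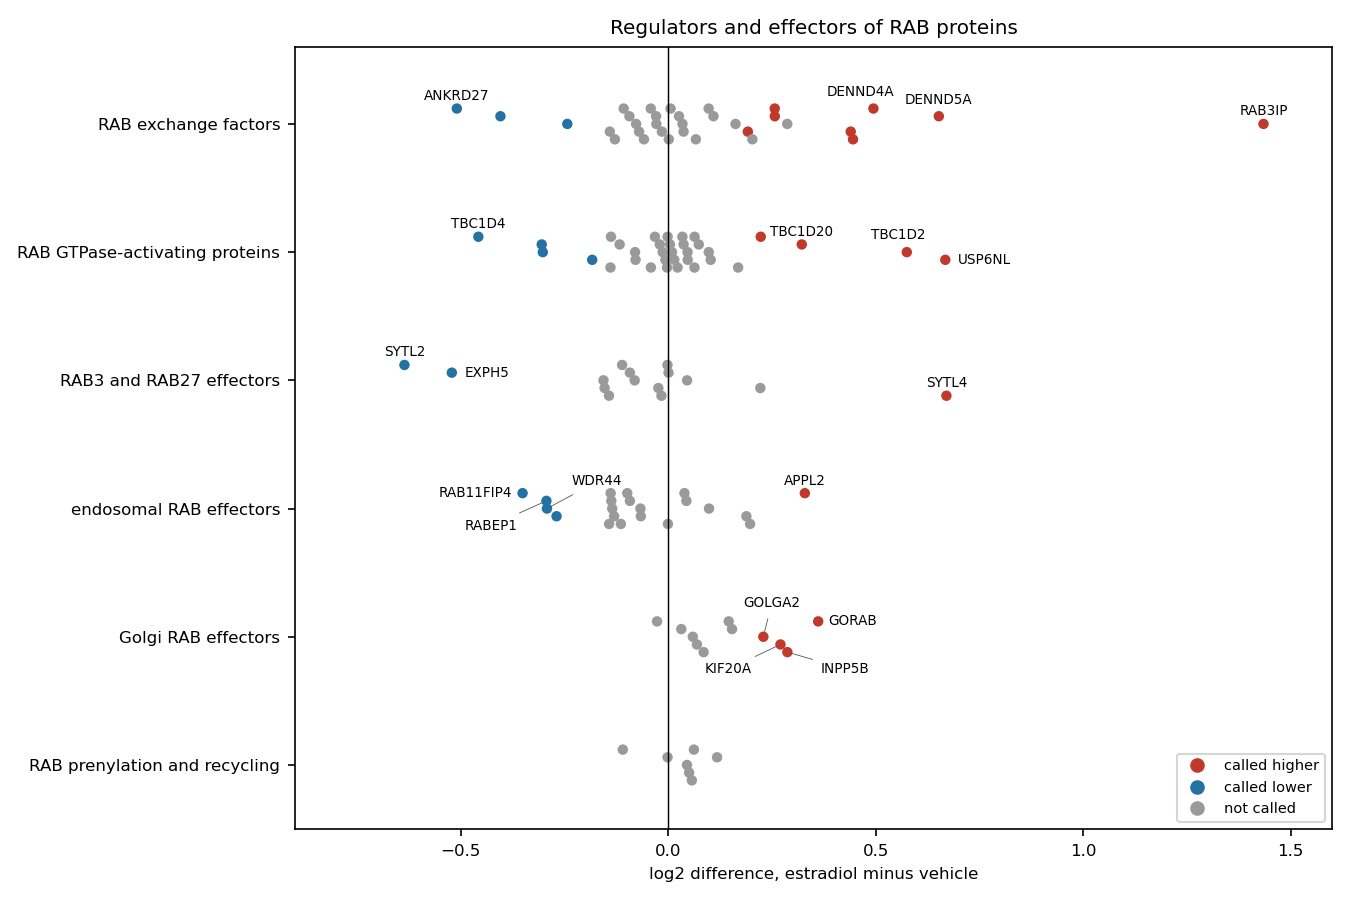
Log2 difference (estradiol minus vehicle, horizontal axis) of each of the 121 measured regulators and effectors of RABs, 1 row per list, red where called higher, blue where called lower and grey where not called, with vertical scatter for legibility only. RAB3IP lies alone at 1.43, and no gene of the prenylation list is coloured.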

How the data were processed

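The authors deposited log2 values from RMA (version not given), per the submitters' processing notes. RMA subtracts background, gives all arrays the same distribution and combines a probe set's probes. It can therefore hide a shift common to most genes and shrinks differences of dim ones. No chip definition was found in the labels. Of 54675 probe sets, 41097 had 1 gene symbol in the platform annotation, 1801 had several and 11777 had none listed. All 57 RAB genes matched a RefSeq gene table by gene ID, where 63 protein-coding symbols fit the naming rule. Sequences are RefSeq's.

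Genes were tested with limma 3.58.1 (lmFit and eBayes) in R 4.3.3 on all 8 arrays, as a two-sided test of estradiol minus vehicle, with no covariate and no filter. Benjamini-Hochberg adjustment ran over all genes, with calls below 0.05. Errors of differences are moderated SEs, errors of levels SDs over 4 arrays, whose number limits precision. The test was checked on simulated data with independent noise. The pass mark of that check covered only changes larger than that of any RAB gene. Figures were drawn with matplotlib 3.10.9. The members, classes and lists were chosen with earlier results of these data known. Genes named were every called or secretory granule RAB, the RABs next to the threshold, and from each list up to 4 called genes with the largest change, or the smallest p where none was called. Genes marked as named after their values were seen fall outside this rule. So do RAB4A, RAB5A, RAB5C, RAB6A, RAB7A, RAB13, RAB18, RAB23 and RAB32, which were not called. Alternatives were a block for the replicate number, other scalings, 2 filters on low levels, averaging or separating a gene's probe sets, a variance trend, array weights, a stricter threshold and each array left out.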

Additional observations from a re-analysis of the deposited data

Results flagged for a closer look

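Among 122 groups of 4 values looked at, 6 held a value whose gap to its nearest neighbour was large for the group's range by Dixon's 95% critical value for 4 samples, and chance gives about 1 in 20. RAB7B was 5.09 on vehicle replicate 1, beside 5.46 to 5.49 on the other vehicle arrays. RAB22A was 7.59 on estradiol replicate 4, beside 7.51 to 7.52. RAB11A was 11.68 on estradiol replicate 3, beside 11.71 to 11.72. RAB43 was 5.61 on vehicle replicate 3, beside 5.28 to 5.33. APPL2 was 5.17 on vehicle replicate 2, beside 5.50 to 5.54. TBC1D14, a GAP-family protein named after its values were seen, was 8.95 on vehicle replicate 4, beside 8.80 to 8.81. RAB7B, RAB43 and TBC1D14 kept their calls without any 1 array.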

How the results depend on the processing

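Of the 23 called RAB genes 15 were called under all 16 alternatives at 0.05, and 0 changed sign. RAB7B, RAB43 and RAB33B were called under the others but removed by the filter on genes below the median level. RAB11A, RAB22A, RAB1A, RAB15 and RAB2A lost the call under at least 1. RAB rises numbered 14 to 21 over the alternatives, and 15 to 19 with 1 array left out, against 19. RAB falls numbered 3 to 5, and 4 with any 1 array left out. Over all genes 2179 were called at an adjusted p below 0.01, against 3538. Replicate numbers did not pair the samples: deviations of same-numbered arrays correlated at -0.21 to 0.11, and 2 of 8 samples correlated best with their own number. With the replicate block 16 RAB genes were called higher, 4 lower, and 2598 genes in all. Of the 31 called regulators and effectors 12 lost the call under at least 1 alternative at 0.05. Called genes were higher in 46.3% of cases over all genes, 54.5% after median centring and 41.6% after quantile normalization, and in 82.6%, 81.8% and 83.3% over RAB genes.

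Of the genes not called, signs were followed only for RAB3A, RAB3B, RAB3C, RAB8A, RAB14, RAB37 and ICMT. Those whose sign turned had differences near 0, and the cause was not tested. After median centring they were 0.0058 for RAB37, 0.022 for RAB3B and 0.0011 for RAB8A. After quantile normalization RAB3B was at 0.022. With array weights RAB37 was at 0.013 and RAB3B at 0.018. With 1 array left out RAB3C ran from -0.026 to 0.080, RAB37 from -0.051 to 0.028 and RAB3B from -0.027 to 0.013. Without detection calls, the distance of dim genes such as RAB37 from background is unknown.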
